A study of Mus musculus with 22 samples.

Results

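Interferon response and double-stranded RNA sensor genes were followed in mouse embryonic stem cells (ESCs) with a conditional knockout of Ythdc1 or labelled as a knockout of Mettl3. Both proteins act on N6-methyladenosine (m6A) in RNA: Ythdc1 reads the mark in the nucleus, and Mettl3 is the enzyme that writes it. The 31 genes were chosen by name from the deposited table of raw counts, which holds 44749 entries (43672 genes and 1077 repeat families), and all 31 have a row there. They comprise 6 sensors of double-stranded RNA, 2 adaptors or cofactors, 1 RNA editor, 5 transcription factors and 17 effectors. They were asked about beside the rise of retroelement RNA in these cells. Both the genes and the question were chosen with earlier results of these data known.

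The cells were male mouse ESCs from the inner cell mass, grown without feeder cells in serum and LIF, and total RNA depleted of ribosomal RNA was sequenced from 22 libraries. In the Ythdc1 set, Ythdc1_cKO cells (a conditional knockout) were given 4OHT (4 libraries) or DMSO (4 libraries). 4OHT is 4-hydroxytamoxifen, the usual ligand for switching on a tamoxifen-dependent recombinase, and DMSO is its solvent. The titles place 2 ESC lines with 2 replicates each in either treatment, and the columns number the libraries 1 to 4 without naming a line. In the Mettl3 set, cells labelled Mettl3 KO (2 libraries) were set against cells labelled Mettl3 WT (2 libraries), with no treatment given. In the Dux set every library is Ythdc1_cKO, given 4OHT or DMSO, and carries a second label: Dux-KO (both alleles of the transcription factor gene Dux lost; 2 and 2 libraries), Dux-Het (1 allele lost; 2 and 2) or none (1 and 1). The recombinase, its driver, the hours of 4OHT and the removed part of each gene are not given in the labels read here, nor is a clone, and nothing in the labels says that replicates were separate cultures. P-values therefore measure only the spread between these libraries, which may be technical.

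Double-stranded RNA in the cytoplasm is recognised by the RIG-I-like receptors Ddx58 (RIG-I) and Ifih1 (MDA5), which signal through Mavs on mitochondria to Irf3 and Irf7 and so to type I interferon genes. In endosomes it is recognised by Tlr3. Secreted interferon acts through its receptor on a complex that includes Stat2 and Irf9 and binds interferon-stimulated response elements (ISREs) in the promoters of effector genes. Gamma-activated sites (GAS) are a second kind of promoter element of interferon signalling. Pluripotent stem cells are known for a weak interferon response and for low levels of several of these genes.

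Promoters are shown for 5 of the genes that fell in the comparisons, and these differ in which of these elements they hold. The sequences are RefSeq promoters (GRCm38.p6), 5′ to 3′ on the gene's own strand, running from 250 bases before to 50 bases after the annotated start. Capitals mark matches to GAAANNGAAA (the core of an ISRE) or TTCNNNGAA (the GAS pattern), searched on both strands.
Gbp7, chr3:142530086-142530385, plus strand: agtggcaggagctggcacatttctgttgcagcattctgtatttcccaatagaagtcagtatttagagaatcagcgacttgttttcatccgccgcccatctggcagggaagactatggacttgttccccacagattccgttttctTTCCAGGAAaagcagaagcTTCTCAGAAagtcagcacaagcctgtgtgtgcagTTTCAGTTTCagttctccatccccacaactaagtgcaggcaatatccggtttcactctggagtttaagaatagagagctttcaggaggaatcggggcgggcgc
Irf1, chr11:53769764-53770063, plus strand: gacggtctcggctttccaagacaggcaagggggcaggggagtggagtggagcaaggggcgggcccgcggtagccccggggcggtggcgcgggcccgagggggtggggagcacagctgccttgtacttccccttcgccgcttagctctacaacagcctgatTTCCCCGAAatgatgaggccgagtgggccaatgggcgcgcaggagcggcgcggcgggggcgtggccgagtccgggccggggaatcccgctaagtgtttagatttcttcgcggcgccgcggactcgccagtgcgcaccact
Isg15, chr4:156200769-156201068, minus strand: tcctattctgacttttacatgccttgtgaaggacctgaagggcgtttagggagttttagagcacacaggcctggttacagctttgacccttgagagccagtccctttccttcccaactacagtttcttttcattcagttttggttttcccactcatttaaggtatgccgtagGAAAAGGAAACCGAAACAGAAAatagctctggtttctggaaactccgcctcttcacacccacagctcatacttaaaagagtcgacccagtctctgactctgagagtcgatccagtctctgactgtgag
Stat2, chr10:128270248-128270547, plus strand: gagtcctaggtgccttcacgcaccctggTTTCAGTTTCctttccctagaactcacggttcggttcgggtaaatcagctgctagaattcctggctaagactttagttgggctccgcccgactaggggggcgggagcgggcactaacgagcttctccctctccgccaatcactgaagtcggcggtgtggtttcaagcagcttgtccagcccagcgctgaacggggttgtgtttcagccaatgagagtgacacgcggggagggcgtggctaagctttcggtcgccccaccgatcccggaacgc
Eif2ak2, chr17:78882523-78882822, minus strand: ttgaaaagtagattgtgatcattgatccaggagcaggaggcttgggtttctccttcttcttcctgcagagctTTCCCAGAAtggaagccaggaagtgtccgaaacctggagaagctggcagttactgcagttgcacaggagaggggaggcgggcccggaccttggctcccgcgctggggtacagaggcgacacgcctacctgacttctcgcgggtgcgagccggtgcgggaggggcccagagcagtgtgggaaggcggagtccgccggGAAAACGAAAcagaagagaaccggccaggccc
Gbp7 held 1 match to GAAANNGAAA, 53 bases before the start and on the opposite strand, and 2 to TTCNNNGAA, 106 and 87 bases before it. Irf1 held 1 TTCNNNGAA match, 90 bases before the start, and its second listed promoter held neither pattern. Isg15 held 3 overlapping GAAANNGAAA matches, 78, 72 and 66 bases before the start. The match in Stat2 lay 222 bases before the start, on the opposite strand. Eif2ak2 held a GAAANNGAAA match 18 bases after the start and a TTCNNNGAA match 178 bases before it. Other genes that fell in the Ythdc1 set are not shown: the promoters of Oasl2, Oasl1 and Xaf1 held neither pattern, and those of Gbp2 and Bst2 held a match. Of the 31 genes 25 matched an entry of the promoter table, and Dhx58, Mx1, Mx2, Usp18, Rtp4 and Zbp1 did not. GAAANNGAAA was present in 13 of those 25 genes, against 3.99% of all 27025 genes in the table. TTCNNNGAA was present in 7 of the 25, against 9.55% of all genes. A match describes these letters and not a bound site.

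The libraries held 24.96 to 54.14 M counts. Ythdc1 itself stood at 62.8, 49, 61.2 and 51.8 CPM (counts per M counted) in the 4OHT libraries of the Ythdc1 set, against 80.2, 70.8, 73.7 and 77.9 CPM in DMSO, with no overlap (log2 fold change -0.41, adjusted p = 0.00064; all adjusted p-values for single genes come from the quasi-likelihood test of edgeR). In the Dux set Ythdc1 stood at 53.9 and 56.6 CPM in Dux-KO cells with 4OHT against 49.7 and 71.3 with DMSO, at 52.2 and 65.9 CPM in Dux-Het cells with 4OHT against 58.9 and 86.5 with DMSO, and it passed no test there. Mettl3 stood at 14.5 and 28.4 CPM in the libraries labelled Mettl3 KO against 29 and 29.9 CPM in those labelled WT (log2 fold change -0.44, adjusted p = 0.21), so replicate 2 labelled KO lay near WT; KO and WT stand for these labels throughout. Which exons were counted in a deleted allele is not known here, so total gene counts check these labels only in part. The ESC markers Pou5f1, Sox2, Nanog, Zfp42, Esrrb, Dppa5a, Utf1 and Tdgf1 were at 36.1 CPM or more in every library. Of the blood cell markers Ptprc, Adgre1 and Lyz2 were at or near 0 (at most 0.0893, 0.0957 and 0.0622 CPM), while Csf1r (5.68 to 12.95 CPM), Cd68 (3.99 to 20.2), Itgam (0.281 to 4.78) and Cd3e (0.464 to 1.88) were detected in every library and Cd14 reached 0.995 CPM. Of the fibroblast markers Lum was at 0 in 16 libraries and Dcn at most 0.373 CPM, while Col1a1 reached 38.6 CPM.

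Replicate 2 of the Dux-Het cells stood apart, in both treatments, and the interferon genes were among the genes that set it apart. With 4OHT, 17 of the 30 tested members were at least 2-fold lower in replicate 2 than in replicate 1, against 10.4% of all 29322 entries, and with DMSO 16 of 30 were, against 11.2%. In both treatments at once it was 15 of 30, against 4.29% of entries: Irf1, Ifih1, Tlr3, Isg15, Ifit1, Oas1a, Oasl2, Mx2, Rsad2, Gbp2, Gbp3, Gbp7, Usp18, Xaf1 and Zbp1. None of the 30 was at least 2-fold higher in replicate 2 in either treatment. In Dux-KO cells with 4OHT 1 of 30 was at least 2-fold lower in replicate 2, against 4.51% of entries. With DMSO 1 was lower and 1 higher there, against 6.05% and 9.24%. In the Mettl3 set 4 of 27 were lower in replicate 2 of KO, against 4.35%, and 2 of 27 in that of WT, against 3.65%. The Dux-Het pattern was picked after its values were seen and is a description of 2 libraries per treatment. Without both replicate 2 libraries, the Dux-Het effect of 4OHT was -0.62 for Stat2 (adjusted p = 0.107, against -0.46 with all libraries), -3.00 for Isg15 (0.0349, against -3.05), -0.64 for Irf1 (0.11, against -0.74), -0.79 for Gbp7 (0.115) and 1.83 for Zbp1 (0.00393, against 1.69), on the log2 scale. Each treatment then has 1 Dux-Het library, whose spread is taken from the other groups.

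Levels differed widely among the 31 genes. On the scale of mean CPM per kilobase of exon over all 22 libraries, Bst2 (tetherin, which holds budding virus at the cell surface) was highest at 27.6 and Trim25 (a ubiquitin ligase and cofactor of RIG-I) next at 19.7. Gbp2 (9.97), Irf1 (9.67), Stat2 (7.14), Adar (6.79), Irf3 (5.53), Mavs (5.15), Eif2ak2 (3.77) and Ddx58 (2.99) followed. Neighbours in that order, such as Gbp2 and Irf1, did not differ beyond the range of their libraries. The lowest were Ifih1 (0.115), Mx2 (0.109), Rsad2 (0.074), Ifit3 (0.0495) and Mx1 (0.027), so that MDA5 RNA was far scarcer than RIG-I RNA in these cells. Because these are bulk samples, fewer cells with the RNA and less RNA per cell cannot be told apart.

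**Figure D1:**
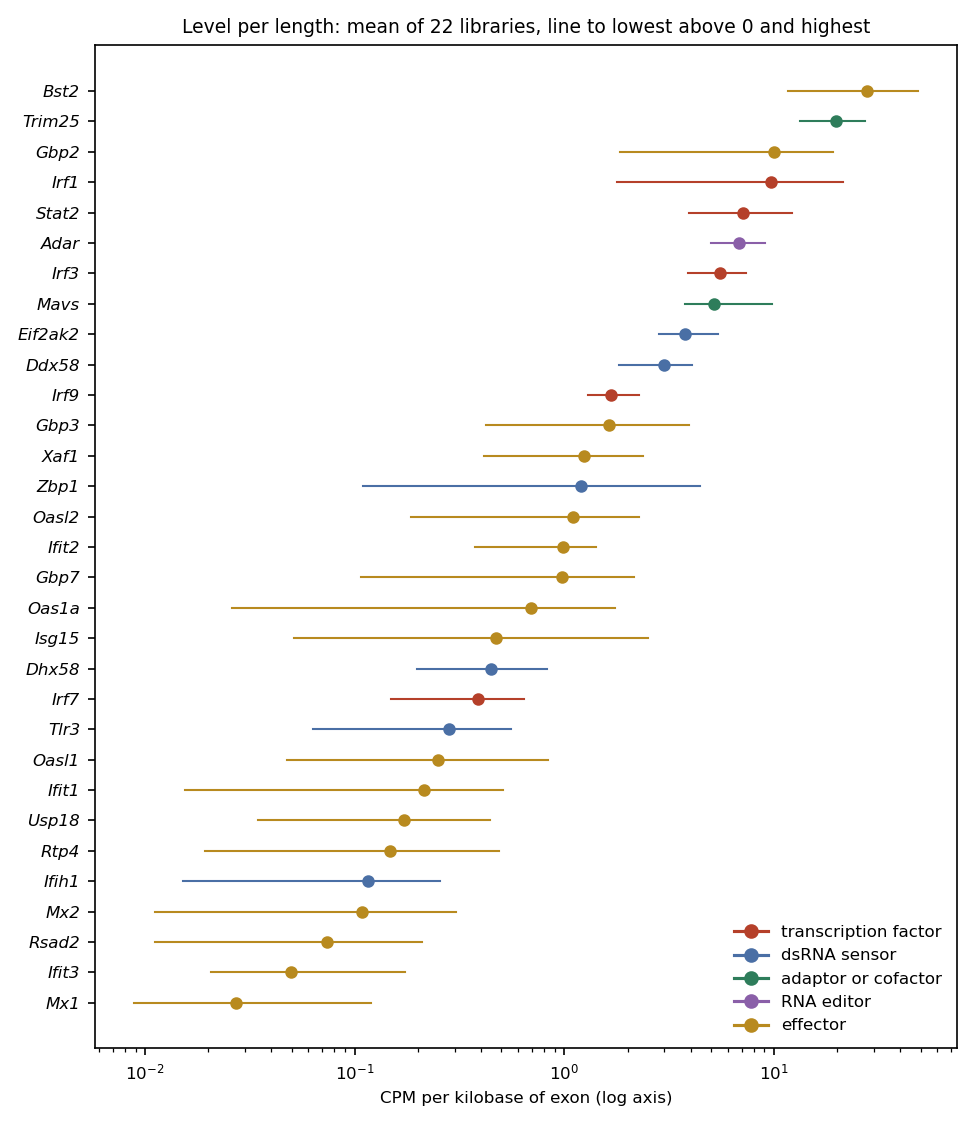
Mean CPM per kilobase of exon over the 22 libraries for the 31 genes, on a log axis, coloured by role; lines run to the lowest library above 0 and to the highest. Bst2 and Trim25 lie at the top (27.6 and 19.7 over all libraries) and Mx1 and Ifit3 at the bottom (0.027 and 0.0495).

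The Ythdc1 set compared the RNA of these genes between 4OHT and DMSO in Ythdc1_cKO cells. Every library given 4OHT, here and in the Dux set, is Ythdc1_cKO. Effects of the drug or of a recombinase therefore cannot be told apart from loss of Ythdc1. With 4OHT the interferon transcription factors Stat2 and Irf1, the sensor Eif2ak2 and effectors including Gbp7 and Oasl2 fell, and the only member that rose was Trim25. Of the 31 genes 24 passed the filter on low counts; 1 rose and 9 fell at an adjusted p under 0.05. Over all 24385 entries tested 23.7% rose and 21.4% fell. At least 2-fold falls were called for 5 members (Gbp7, Oasl2, Irf1, Oasl1 and Stat2), against 3.87% of all entries. The median log2 fold change of the 24 was -0.40, with 20 of 24 below 0, against 0.016 over all entries. Libraries of the 2 treatments did not overlap for 6 members that were lower and 2 that were higher, against 20.7% and 20.9% of entries. The remaining 7 genes, Ifit3, Isg15, Mx1, Mx2, Oas1a, Rsad2 and Rtp4, had too few counts to test here.

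Among the transcription factors, Stat2, a partner of Irf9 in interferon signalling (chr10:128270559-128292849, plus strand, GRCm38), stood at 26, 28.1, 30.9 and 28 CPM with 4OHT and at 53.9, 68.3, 72.4 and 67 CPM with DMSO. Every 4OHT library lay below every DMSO library, and the lowest DMSO library was still far above the highest with 4OHT. The means were 28.3 ± 1.99 and 65.4 ± 8 CPM (SD, n = 4 each), a log2 fold change of -1.19 (SE 0.0893; 2.28-fold lower; adjusted p = 3.27e-08). Irf1, a transcription factor that interferon itself induces (chr11:53770014-53778374, plus strand), stood at 7.1, 11.7, 13.1 and 10.3 CPM with 4OHT and at 22.9, 25.7, 33 and 35.6 CPM with DMSO. Again the treatments did not overlap, with means of 10.6 ± 2.56 and 29.3 ± 5.99 CPM and a log2 fold change of -1.45 (SE 0.167; adjusted p = 3.06e-06). Irf3, Irf7 and Irf9 passed no test, with log2 fold changes of -0.16, -0.04 and -0.22.

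Among the sensors, Eif2ak2, the kinase PKR that halts translation when it binds double-stranded RNA (chr17:78852564-78882573, minus strand), stood at 14.9, 15.9, 14.5 and 14.8 CPM with 4OHT and at 27, 27.7, 25.8 and 24.9 CPM with DMSO. The libraries within each treatment lay close together and the treatments far apart. The log2 fold change was -0.79 (SE 0.0771; 1.73-fold lower; adjusted p = 5.31e-07), with means of 15 ± 0.609 and 26.4 ± 1.23 CPM (SD, n = 4 each).
Ifih1 (chr2:62595798-62646255, minus strand) stood at 0.124, 0.516, 0.71 and 0.373 CPM with 4OHT and at 0.289, 1.16, 0.806 and 2.08 CPM with DMSO (log2 fold change -1.31, adjusted p = 0.0605). The treatments overlapped, and DESeq2 placed the same difference under the threshold (adjusted p = 0.0368). Ddx58 stood at 20.8, 20.8, 19.4 and 22.4 CPM with 4OHT and at 21.3, 20.8, 25.2 and 28.7 CPM with DMSO, overlapping (log2 fold change -0.18, adjusted p = 0.171).
Dhx58 (LGP2, a regulator of the other RIG-I-like receptors) stood at 1.55, 0.881, 1.25 and 1.06 CPM with 4OHT and at 0.771, 0.862, 0.681 and 0.648 CPM with DMSO. All 4OHT libraries were above all DMSO libraries, by little in replicate 2, and the test did not pass (log2 fold change 0.70, adjusted p = 0.0643). Tlr3 stood at 0.33, 0.773, 0.588 and 0.901 CPM with 4OHT and at 0.819, 1.44, 0.983 and 0.81 CPM with DMSO, with overlap (log2 fold change -0.64, adjusted p = 0.163). Zbp1, which binds Z-form nucleic acid and can trigger cell death, stood at 0.949, 1.5, 2.13 and 1.06 CPM with 4OHT and at 0.386, 0.521, 1.61 and 1.49 CPM with DMSO, and overlapped as well (log2 fold change 0.52, adjusted p = 0.332).

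The adaptor Mavs stood at 12.5, 14.8, 14.7 and 14.1 CPM with 4OHT and at 14.1, 14.9, 17.8 and 16.7 CPM with DMSO (log2 fold change -0.16, adjusted p = 0.224), and the treatments overlapped. Trim25 (chr11:88999376-89020293, plus strand) stood at 111, 108, 113 and 101 CPM with 4OHT and at 80.3, 76.6, 86.1 and 81.2 CPM with DMSO. Its treatments did not overlap, and the log2 fold change was 0.44 (SE 0.0609; 1.36-fold; adjusted p = 2.15e-05). The editor Adar, which turns adenosine into inosine in double-stranded RNA and so hides it from the sensors, stood at 41.7, 49.2, 48.6 and 52.3 CPM with 4OHT and at 55.5, 50.7, 49.3 and 51.5 CPM with DMSO. These overlapped, and no difference was called (log2 fold change -0.09, adjusted p = 0.346).

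Effectors supplied most of the falls: of 17, 10 were tested, 6 fell and none rose. Gbp7, a guanylate-binding GTPase of cell defence (chr3:142530342-142550149, plus strand), had the largest change among the members, with 0.599, 1.01, 1.52 and 1.06 CPM with 4OHT and 2.22, 6.31, 10.9 and 11.6 CPM with DMSO. The treatments did not overlap, although the DMSO libraries themselves spread widely, with replicate 1 lowest (7.77 ± 4.39 CPM, SD, n = 4, against 1.05 ± 0.376 with 4OHT). The log2 fold change was -2.88 (SE 0.408; 7.38-fold lower; adjusted p = 2.66e-05). Oasl2, an OAS-like protein with ubiquitin-like domains, stood at 1.18, 2.58, 3.58 and 1.4 CPM with 4OHT and at 3.01, 6.45, 8.82 and 8.78 CPM with DMSO. Here 4OHT replicate 3 lay above DMSO replicate 1, and the difference passed (log2 fold change -1.61, SE 0.337, adjusted p = 0.000961). Its neighbour Oasl1 stood at 0.289, 0.258, 0.318 and 0.124 CPM with 4OHT and at 0.386, 0.561, 1.01 and 0.648 CPM with DMSO, without overlap (log2 fold change -1.34, SE 0.458, adjusted p = 0.0248).
Gbp2, another guanylate-binding protein, fell as well (11.1 to 25.2 CPM with 4OHT, 24.1 to 48.2 CPM with DMSO; log2 fold change -0.93, adjusted p = 0.00219), its ranges overlapping. Bst2 fell by 0.27 on the log2 scale (adjusted p = 0.0357) and Xaf1, an antagonist of inhibitors of apoptosis, by 0.59 (adjusted p = 0.048). Gbp3, Ifit1, Ifit2 and Usp18 passed no test, with log2 fold changes of -0.54, -0.60, -0.26 and 0.34. The calls of Bst2, Xaf1 and Oasl1 were lost when single libraries were left out, and the Gbp and Oas families hold near-identical copies between which the counting may have split reads, since the labels do not say how such reads, or strand, were handled.

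**Figure D2:**
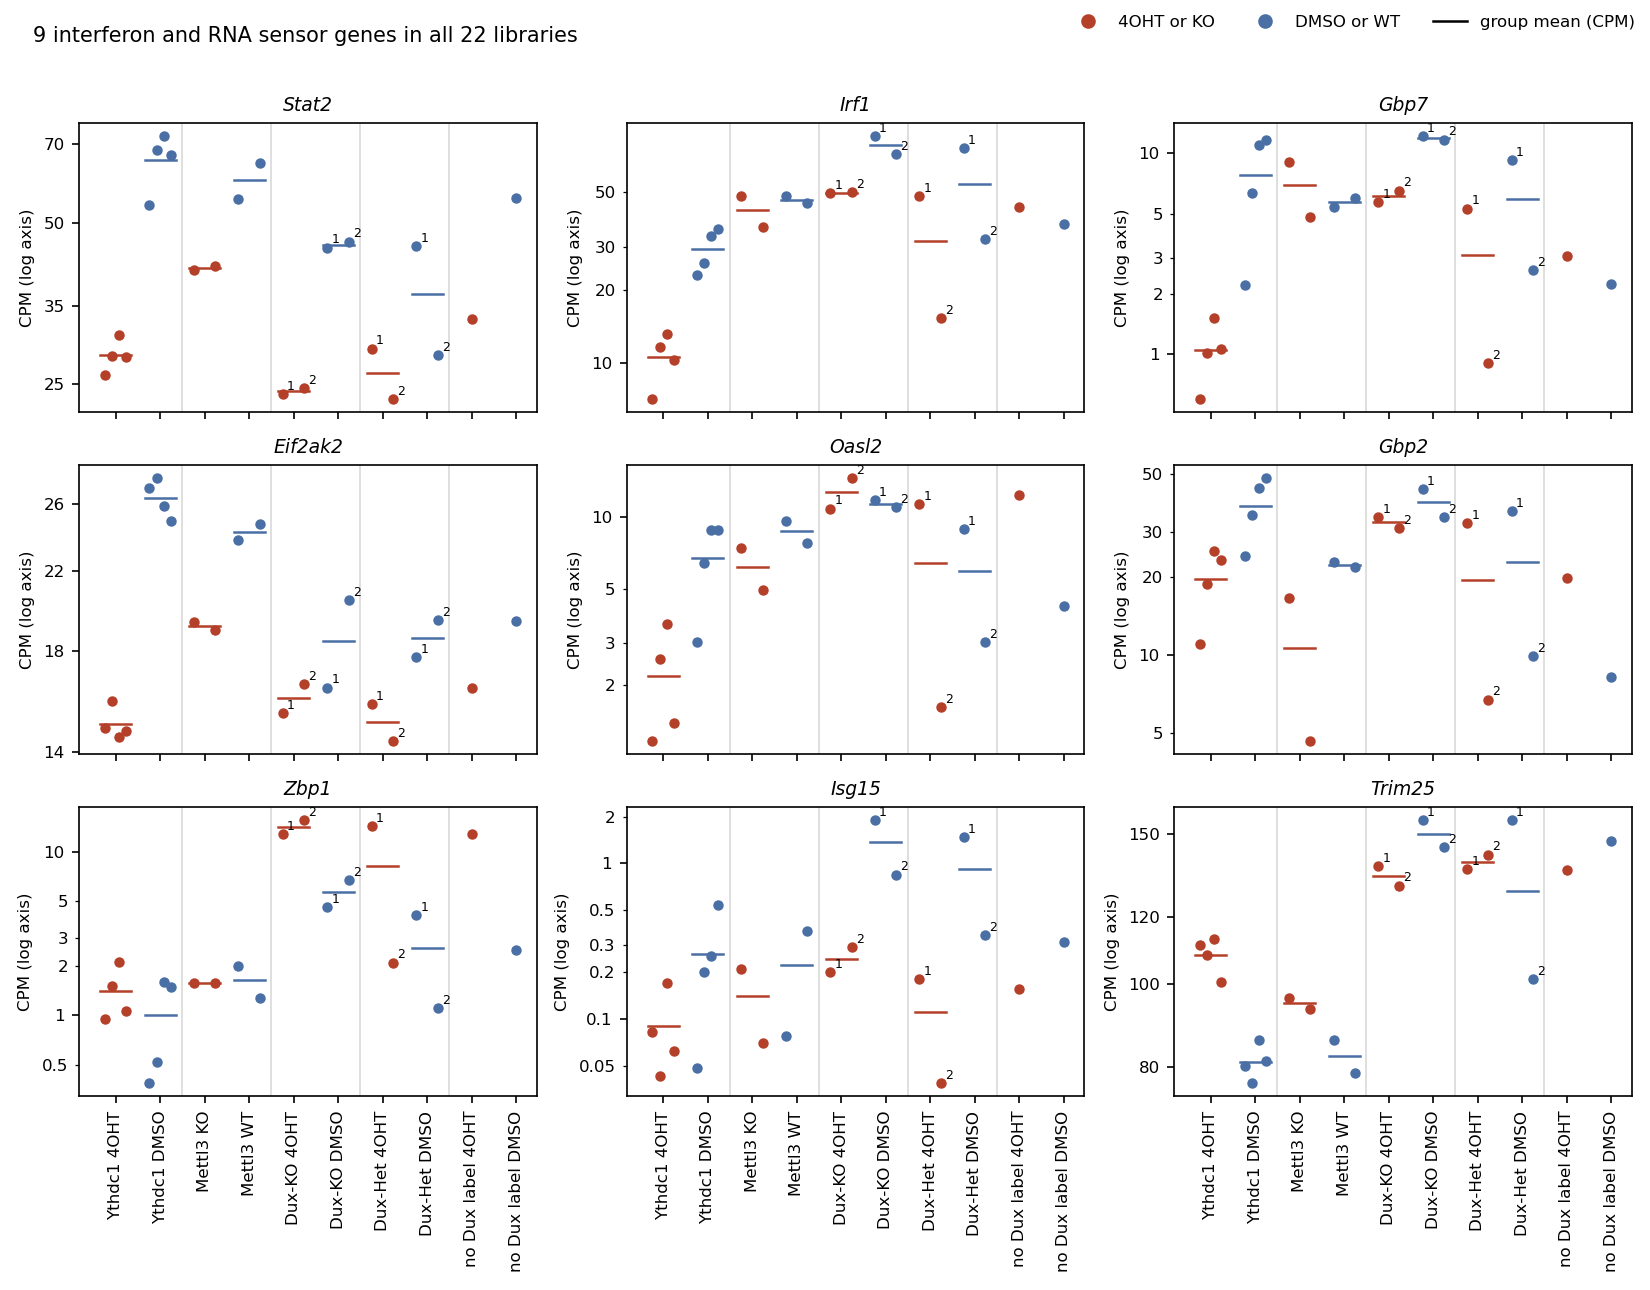
CPM of 9 members in each of the 22 libraries, on log axes, by group; points are libraries, bars are group means, and digits mark the replicate number in the Dux set. Stat2 and Eif2ak2 show 4OHT libraries of the Ythdc1 set (28.3 and 15 CPM on average) clear of DMSO (65.4 and 26.4 CPM), and Dux-Het replicate 2 lies low for Gbp2, Gbp7, Oasl2, Zbp1 and Isg15.

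The 7 untested effectors were scarce in both treatments. Isg15, a ubiquitin-like modifier, had 4, 2, 7 and 2 counts with 4OHT and 2, 10, 10 and 20 counts with DMSO. Oas1a, which makes the activator of RNase L, stood at 0, 0.172, 0.049 and 0.249 CPM with 4OHT and at 0.482, 0.22, 0.151 and 0.432 CPM with DMSO. Ifit3, Mx1, Mx2, Rsad2 and Rtp4 were at 0.302 CPM or less in all 8 libraries. These genes did not pass the filter on low counts, and no test of them was made here.

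Summed over the 31 genes, the CPM were 305, 333, 351 and 332 with 4OHT and 378, 405, 451 and 452 with DMSO, without overlap. Fibroblast markers summed to 11.7 to 19.3 CPM with 4OHT and to 19 to 24.1 CPM with DMSO, with overlap. Of 6 tested 2 fell and none rose, against 21.4% and 23.7% of all entries. The log2 fold changes of 3 were above 0 and those of 3 below it. Of 5 blood markers tested, Cd68 and Itgam rose and none fell, with Ptprc, Adgre1 and Lyz2 at or near 0 in every library. The part of other cells in the falls was not tested.

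The Mettl3 set compared cells labelled KO and WT for the enzyme that writes the mark, and the members moved in other ways. In the libraries labelled Mettl3 KO the adaptor Mavs, the editor Adar and the effectors Oas1a, Oasl1 and Rtp4 rose, while Stat2, Bst2 and Ifit2 fell. With 27 members tested, 5 rose and 3 fell, against 16.4% and 14.9% of all 23977 entries tested. Rtp4, among the 5 that rose, passed the filter on low counts only through the KO libraries, where it was high. The median log2 fold change of the 27 was -0.03, against 0.016 over all entries, so no shift of the group as a whole appeared. Groups did not overlap for 7 members that were higher and 10 that were lower, against 32.6% and 33.7% of entries. No call survived leaving out WT replicate 1, which left 0 members called, and only Mavs and Bst2 kept theirs without WT replicate 2.

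Mavs (chr2:131234063-131248025, plus strand) stood at 32 and 32.6 CPM in KO and at 14.6 and 18.7 CPM in WT. The KO libraries lay close together and well above both WT libraries (log2 fold change 0.97, SE 0.137, 1.96-fold, adjusted p = 0.000803). Adar stood at 55.8 and 53.2 CPM in KO and at 43.4 and 40.5 CPM in WT (log2 fold change 0.39, SE 0.0981, adjusted p = 0.0141), again without overlap. Among effectors, Oas1a (chr5:120896256-120907521, minus strand) stood at 2.14 and 3.29 CPM in KO and at 1.08 and 1.07 CPM in WT (log2 fold change 1.35, SE 0.332, adjusted p = 0.0132). Oasl1 stood at 1.58 and 2.17 CPM in KO and at 0.541 and 0.602 CPM in WT (log2 fold change 1.72, SE 0.387, adjusted p = 0.00876). Oas1a and Oasl1 lie apart on chromosome 5, and the counting may have split reads of either with its own close relatives. Rtp4, a receptor-transporting protein induced by interferon, had 28 and 22 counts in KO and 8 and 4 counts in WT (log2 fold change 2.00, SE 0.596, adjusted p = 0.0299), a rise that rests on few reads and was lost with DESeq2 (adjusted p = 0.0796).

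Bst2 stood at 10.5 and 10.8 CPM in KO and at 19.9 and 23.4 CPM in WT, the KO libraries lying near each other and below WT (log2 fold change -1.01, SE 0.138, 2.01-fold lower, adjusted p = 0.000666). Stat2 stood at 40.8 and 41.4 CPM in KO and at 55.4 and 64.7 CPM in WT (log2 fold change -0.53, SE 0.108, adjusted p = 0.00533). Ifit2, a tetratricopeptide protein that binds viral RNA, stood at 1.9 and 1.47 CPM in KO and at 2.67 and 3.84 CPM in WT (log2 fold change -0.94, adjusted p = 0.0388), a call lost with DESeq2 (adjusted p = 0.0829).
Of the 6 sensors none was called, with Oas1a counted among the effectors. Eif2ak2 stood at 19.4 and 19 CPM in KO and at 23.8 and 24.7 CPM in WT, without overlap (log2 fold change -0.32, adjusted p = 0.0566). Tlr3 stood at 1.54 and 0.769 CPM in KO and at 2.86 and 2.07 CPM in WT (log2 fold change -1.07, adjusted p = 0.0607).
Ifih1 stood at 0.807 and 0.559 CPM in KO and at 1.08 and 0.835 CPM in WT, and Ddx58 at 26.5 and 22.1 CPM in KO and at 22.2 and 20.4 CPM in WT; Ifih1 lay lower and Ddx58 overlapped. Dhx58 stood at 1.93 and 1.08 CPM in KO and at 1.08 and 1.07 CPM in WT, and Zbp1 at 1.58 and 1.57 CPM in KO and at 2.01 and 1.27 CPM in WT. The Dhx58 values nearly met and those of Zbp1 overlapped.

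Replicate 2 labelled KO, the library with WT-like Mettl3, was also low for Gbp2, with 16.6 CPM in KO replicate 1 and 4.65 CPM in replicate 2, against 22.9 and 21.8 CPM in WT. For Gbp3 the KO replicates stood at 6.07 and 1.75 CPM, on either side of WT at 4.41 and 3.38 CPM, and for Gbp7 at 9.02 and 4.82 CPM, on either side of 5.37 and 6.02 CPM. A guanylate-binding gene could thus be higher in 1 KO library and lower in the other. Fibroblast markers summed to 37.6 and 19.96 CPM in KO and 48.3 and 53.6 CPM in WT, and their part in these values was not tested.

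The difference between the effect of 4OHT in the Ythdc1 set and that of the Mettl3 KO label was itself tested on 30 members. The effect was lower in the Ythdc1 set for 8 and higher for 1, against 11.6% and 13.7% of all 28260 entries. For Gbp7 the difference was -3.14 on the log2 scale (adjusted p = 0.00112), the Mettl3 effect being 0.30. It was -3.01 for Oasl1 (adjusted p = 0.00227), which fell in the Ythdc1 set and rose with the KO label, and -2.79 for Oas1a (adjusted p = 0.0308). Oas1a had too few counts to test in the Ythdc1 set alone, with 18 counts over the 4OHT libraries and 53 over the DMSO libraries. For Irf1 it was -1.29 (adjusted p = 0.00146), and for Mavs -1.09 (adjusted p = 0.000132). Stat2 fell in both sets and by more in the Ythdc1 set (difference -0.62, adjusted p = 0.00512), and Eif2ak2 likewise had the lower effect there (-0.42, adjusted p = 0.0239). Bst2 was the member with the higher effect in the Ythdc1 set (0.78, adjusted p = 0.00267). Of 12 fits that each left out 1 library, 6 lost the call of Oas1a (adjusted p 0.0507 to 0.129), 3 that of Eif2ak2 (0.0527 to 0.0876) and 1 that of Adar, the remaining member with the lower effect (0.0703), and those of the other 6 were kept in all 12.

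**Figure D3:**
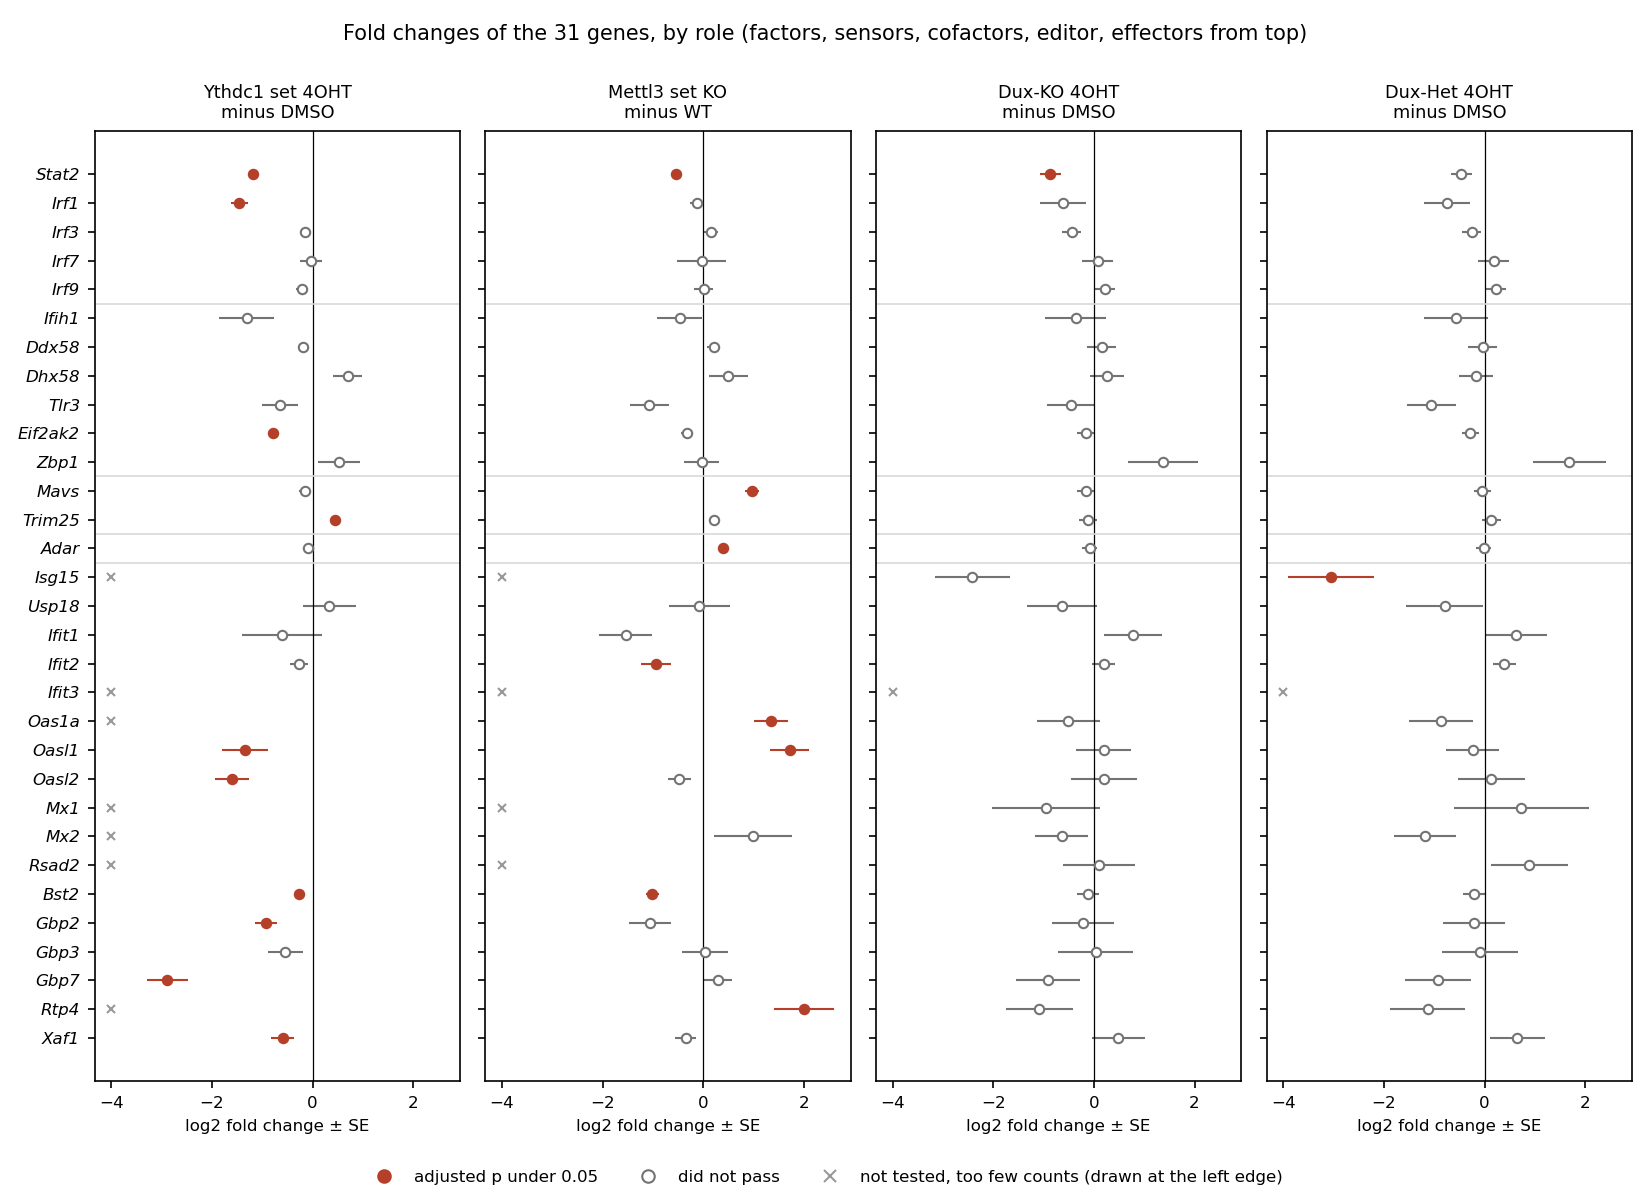
Log2 fold changes with standard errors for the 31 members in the Ythdc1 set, the Mettl3 set, Dux-KO and Dux-Het; filled points passed an adjusted p under 0.05 and crosses mark genes not tested. Gbp7 (-2.88) and Irf1 (-1.45) mark the low end of the Ythdc1 set, and Mavs (0.97) and Oasl1 (1.72) rise in the Mettl3 set.

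The Dux set asked whether the effect of 4OHT in Ythdc1_cKO cells depends on Dux, the transcription factor that switches on MERVL and other genes of the early embryo. Few members were called within either genotype: Stat2 fell in Dux-KO cells, Isg15 fell in Dux-Het cells, and none rose. Of 30 tested, 1 fell and 0 rose in Dux-KO cells, against 4.36% and 5.5% of all 29322 entries, and likewise 1 fell and 0 rose in Dux-Het cells, against 4.34% and 4.99%. With the replicate number as a block within each genotype, a fit chosen after seeing the data, 4 members fell and 1 rose in Dux-KO cells, against 23.2% of entries called in either direction, and 6 fell and 2 rose in Dux-Het cells, against 20.8%. Medians of the 30 were -0.14 in Dux-KO and -0.19 in Dux-Het cells, against 0.053 and 0.037 over all entries. Libraries did not overlap for 14 lower and 5 higher members in Dux-KO cells, against 29% and 31.1% of entries. Averaged over both genotypes, which share 1 estimate of spread, 1 member rose and 2 fell, against 13.7% and 11.8% of entries, and with that block 2 rose and 8 fell, against 37% of entries in either direction. The effect of 4OHT did not pass a test of difference between Dux-KO and Dux-Het cells for any member, nor for any of the 29322 entries with edgeR; 481 entries had an unadjusted p under 0.05, and DESeq2 called 2.

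Stat2 stood at 23.9 and 24.5 CPM in Dux-KO cells with 4OHT and at 44.9 and 46.1 CPM with DMSO. Each treatment's libraries lay close together and the treatments well apart (log2 fold change -0.87, SE 0.209, adjusted p = 0.0273), but the call was lost without any 1 of these 4 libraries (adjusted p 0.0633 to 0.182); the block within genotypes also called it in Dux-Het cells (-0.44, adjusted p = 0.0382). In Dux-Het cells Stat2 stood at 29.1 and 23.4 CPM with 4OHT and at 45.2 and 28.2 CPM with DMSO, with 4OHT replicate 1 just above DMSO replicate 2 (log2 fold change -0.46, adjusted p = 0.193). The mean effect over both genotypes was -0.67 (SE 0.148, adjusted p = 0.00798), and Stat2 was the only member called lower both there and in the Ythdc1 set. Isg15, the other member called lower on that mean, had too few counts to test in the Ythdc1 set.
Isg15 (chr4:156199424-156200818, minus strand) had 10 and 16 counts in Dux-KO cells with 4OHT and 55 and 40 with DMSO, and 8 and 2 counts in Dux-Het cells with 4OHT and 62 and 15 with DMSO. In both genotypes the 4OHT libraries were lowest. The log2 fold change was -2.42 in Dux-KO cells (adjusted p = 0.0665), -3.05 in Dux-Het cells (SE 0.848, adjusted p = 0.0464) and -2.73 on average (SE 0.566, 6.64-fold lower, adjusted p = 0.00553), all on low counts. The Dux-Het call was lost without DMSO replicate 1 (-1.67, adjusted p = 0.317) or either 4OHT library, and the average was called without each library in turn. With the block within genotypes the Dux-KO effect was called too (-2.32, adjusted p = 0.00201).

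Zbp1 (chr2:173206612-173218923, minus strand) moved the other way. It stood at 12.9 and 15.7 CPM in Dux-KO cells with 4OHT and at 4.63 and 6.71 CPM with DMSO, and at 14.4 and 2.11 CPM in Dux-Het cells with 4OHT and at 4.09 and 1.11 CPM with DMSO. In the Dux-KO cells the treatments were apart, and in the Dux-Het cells replicate 2 was low in both. Neither genotype passed on its own (log2 fold change 1.37, adjusted p = 0.235, and 1.69, adjusted p = 0.171), and the mean did (1.53, SE 0.501, adjusted p = 0.0446). The call of the mean was lost in 6 of 8 fits that each left out 1 library (adjusted p 0.0878 to 0.282, the last without Dux-Het 4OHT replicate 1, where the log2 fold change was 0.54) and with DESeq2 (0.118). It was kept with the replicate block (1.46, adjusted p = 0.0177), and the block within genotypes called both Dux-KO (1.39, adjusted p = 2.38e-05) and Dux-Het cells (1.48, adjusted p = 4.41e-05).

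Irf1 stood at 49.6 and 50.1 CPM in Dux-KO cells with 4OHT and at 85 and 71.7 CPM with DMSO, and at 48.3 and 15.3 CPM in Dux-Het cells with 4OHT and at 75.8 and 32.3 CPM with DMSO. The treatments were apart in the Dux-KO cells, and the mean log2 fold change of -0.68 was not called (adjusted p = 0.143). That mean was called with the replicate block (-0.68, adjusted p = 0.0282), with the block within genotypes (-0.72, adjusted p = 5.46e-06), with no filter on low counts, and without both Dux-Het replicate 2 libraries (-0.64, adjusted p = 0.00368). Gbp7 stood at 5.71 and 6.51 CPM in Dux-KO cells with 4OHT and at 12.1 and 11.7 CPM with DMSO, and at 5.3 and 0.908 CPM in Dux-Het cells with 4OHT and at 9.26 and 2.62 CPM with DMSO (mean -0.92, adjusted p = 0.162). The Gbp7 mean was called with the block within genotypes (-0.998, adjusted p = 1.5e-05), with no filter on low counts and without both Dux-Het replicate 2 libraries (-0.87), and not with the block over the whole set (adjusted p = 0.0566). The block within genotypes called Irf1 and Gbp7 in each genotype, and in Dux-Het cells also Oas1a (-0.92, adjusted p = 0.0299) and Xaf1 (0.60, adjusted p = 0.0405). Oasl2 stood at 10.8 and 14.4 CPM in Dux-KO cells with 4OHT and at 11.7 and 10.9 CPM with DMSO, and at 11.2 and 1.62 CPM in Dux-Het cells with 4OHT and at 8.88 and 3.01 CPM with DMSO. Oasl2 overlapped in both genotypes.

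Eif2ak2 stood at 15.4 and 16.6 CPM in Dux-KO cells with 4OHT and at 16.4 and 20.5 CPM with DMSO, and at 15.8 and 14.4 CPM in Dux-Het cells with 4OHT and at 17.7 and 19.5 CPM with DMSO. These are levels of CPM in which the DMSO libraries lie nearer to the 4OHT libraries than in the Ythdc1 set. The difference between the Ythdc1 set's effect and the mean effect of the Dux set was -0.55 on the log2 scale (SE 0.135, adjusted p = 0.0446), the only one called among 31 members, against 0.522% of entries lower and 0.854% higher. It lay close to the threshold and was lost in 12 of 16 fits that each left out 1 library (adjusted p up to 0.134). For Stat2 that difference was -0.51 (adjusted p = 0.159).
The remaining sensors were not called in either genotype by the test used throughout; the block within genotypes called Tlr3 in Dux-Het cells (-1.12, adjusted p = 0.00889) and on average (adjusted p = 0.00371). Ifih1 stood at 1.31 and 1.46 CPM in Dux-KO cells with 4OHT and at 1.8 and 1.87 CPM with DMSO, and at 1.11 and 0.386 CPM in Dux-Het cells with 4OHT and at 1.87 and 0.371 CPM with DMSO. Ddx58 stood at 19.2 and 24.6 CPM in Dux-KO cells with 4OHT and at 19.7 and 20.8 CPM with DMSO, and at 21.4 and 12.9 CPM in Dux-Het cells with 4OHT and at 22.6 and 13.2 CPM with DMSO. For both genes the gap between Dux-Het replicates was wider than that between treatments.
Tlr3 stood at 1.83 and 1.95 CPM in Dux-KO cells with 4OHT and at 2.45 and 2.89 CPM with DMSO, and at 1.49 and 0.483 CPM in Dux-Het cells with 4OHT and at 2.8 and 1.34 CPM with DMSO. Dhx58 stood at 2.35 and 1.82 CPM in Dux-KO cells with 4OHT and at 1.8 and 1.78 CPM with DMSO, and at 2.31 and 1.51 CPM in Dux-Het cells with 4OHT and at 2.7 and 1.64 CPM with DMSO. Tlr3 was lower with 4OHT under each replicate number and Dhx58 was not. Mavs stood at 13.6 and 15.1 CPM in Dux-KO cells with 4OHT and at 16.7 and 16.4 CPM with DMSO, and at 14 and 15.7 CPM in Dux-Het cells with 4OHT and at 16.6 and 14.5 CPM with DMSO. Adar stood at 60.6 and 59.8 CPM in Dux-KO cells with 4OHT and at 73.6 and 58 CPM with DMSO, and at 61 and 60.4 CPM in Dux-Het cells with 4OHT and at 64.2 and 60.3 CPM with DMSO. Mavs was lower with 4OHT in both Dux-KO pairs of the same number and in Dux-Het replicate 1, and higher in Dux-Het replicate 2, and Adar overlapped in both genotypes.

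The summed CPM of the 31 genes were 477 and 491 in Dux-KO cells with 4OHT and 600 and 540 with DMSO, and 483 and 364 in Dux-Het cells with 4OHT and 560 and 360 with DMSO. Replicate 2 held the lowest sums in both Dux-Het treatments. Fibroblast markers summed to 33.6 and 37.7 CPM in Dux-KO cells with 4OHT and 75 and 58.2 with DMSO, and to 39.2 and 30.1 CPM in Dux-Het cells with 4OHT and 67.2 and 19.6 with DMSO. Their part was not tested.

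Without 4OHT, Dux-KO cells and Dux-Het cells differed in no member by edgeR, and over all entries 10 of 29322 were called (0.0341%), with 757 at an unadjusted p under 0.05. The median log2 difference of the 30 members was 0.43 higher in Dux-KO cells, with 24 of 30 above 0, against -0.018 over all entries. Libraries did not overlap for 8 members, all higher in Dux-KO cells, against 12.3% of entries. The Dux-Het side of this comparison includes replicate 2: without both of its libraries the median was 0.05, with 20 of 30 above 0.

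The pair with no Dux label, 1 library per treatment and so without a test, gave the following values, which were not tested against those of the labelled genotypes. Zbp1 stood at 12.9 CPM with 4OHT (95% Poisson interval 11.8 to 14) and at 2.53 CPM with DMSO (2.05 to 3.09), a log2 ratio of 2.14 with 0.5 CPM added. Oasl2 stood at 12.3 CPM with 4OHT (11.3 to 13.3) and at 4.26 CPM with DMSO (3.63 to 4.96), and Gbp2 at 19.9 CPM (18.6 to 21.2) and 8.2 CPM (7.32 to 9.16). Gbp3 stood at 7.03 CPM with 4OHT and 2.56 CPM with DMSO, and Ifit1, which binds viral RNA ends, had 43 counts with 4OHT and 2 with DMSO. With 0.5 CPM added, these 5 were the members at least 2-fold higher among 28 with 20 or more counts, against 4.09% of 25271 entries, and 0 were at least 2-fold lower, against 1.46%. With 0.1 CPM added 5 were higher and 1, Oas1a, lower; with 1 CPM added 4 were higher and 0 lower; and by the plain ratio of CPM 8 were higher (with Irf7, Usp18 and Rtp4) and 1 lower. Stat2 was lower, at 33.1 CPM with 4OHT (31.4 to 34.8) and 55.6 CPM with DMSO (53.3 to 58.1), as it was under each replicate number of the Dux set. The intervals cover counting error only, and the spread between cultures of this pair is unknown. Over this pair and the 4 same-numbered pairs of Dux-KO and Dux-Het libraries, Zbp1, Xaf1 and Ifit1 were higher with 4OHT in 5 of 5, and Stat2, Isg15, Tlr3, Oas1a, Irf3 and Eif2ak2 lower in 5 of 5. That is 3 and 6 of 30 members, against 23.3% and 21.6% of all entries.

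These changes stood beside a rise of retroelement RNA. All repeat families took 27.9% ± 0.734 of counts with 4OHT and 23% ± 1.18 with DMSO in the Ythdc1 set (SD, n = 4 each), and 27.8% ± 1.33 in KO and 27% ± 0.171 in WT in the Mettl3 set (n = 2 each). They took 24.2% ± 0.29 with 4OHT and 18.6% ± 3.11 with DMSO in Dux-KO cells, and 24.7% ± 0.465 and 19.7% ± 1.75 in Dux-Het cells (n = 2 each). Of 22 listed repeat families (retroelements and the major satellite GSAT_MM) 21 rose in the Ythdc1 set, all but MuLV-int (log2 fold change 0.14), and none fell. In the Mettl3 set 12 rose and ETnERV-int and MMETn-int fell (log2 fold change -0.74 and -0.75). In Dux-KO cells 6 rose and in Dux-Het cells 5, and on the mean of both genotypes 10 rose and 1 fell. Over all repeat families tested, 637 of 1032 rose in the Ythdc1 set and 110 of 1028 in the Mettl3 set. In Dux-KO cells 61 of 1047 rose, in Dux-Het cells 20 of 1047, and on their mean 381 of 1047. Of all entries, repeats and genes together, 23.7%, 16.4%, 5.5%, 4.99% and 13.7% rose in these comparisons, in that order.

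MERVL-int, the endogenous retrovirus that Dux switches on, averaged 1903 ± 493 CPM with 4OHT and 616 ± 78.2 CPM with DMSO in the Ythdc1 set (log2 fold change 1.65, adjusted p = 7.01e-08). It averaged 621 ± 26.5 CPM in KO and 308 ± 6.65 CPM in WT (1.03, adjusted p = 2.65e-05). In Dux-KO cells it averaged 329 ± 3.23 CPM with 4OHT and 271 ± 44 CPM with DMSO (0.32, adjusted p = 0.217), and in Dux-Het cells 958 ± 133 CPM and 333 ± 21.7 CPM (1.54, adjusted p = 0.000328). IAPEz-int rose in all of these comparisons, by 0.36, 0.54, 0.72 and 0.61 on the log2 scale in the Ythdc1 set, the Mettl3 set, Dux-KO and Dux-Het cells. Beside these rises, the sensor Eif2ak2 fell in the Ythdc1 set and Zbp1 rose on the mean of the Dux set, and the sensors Ifih1, Ddx58, Dhx58 and Tlr3 were called in no comparison by the test used throughout. Other settings did call some of these 4, such as Ifih1 in the Ythdc1 set (lower, adjusted p = 0.0368 with DESeq2) and Tlr3 in the Mettl3 set (lower, adjusted p = 0.025 with the replicate block). Of the 31 members 14 were called in none of the comparisons.

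**Figure D4:**
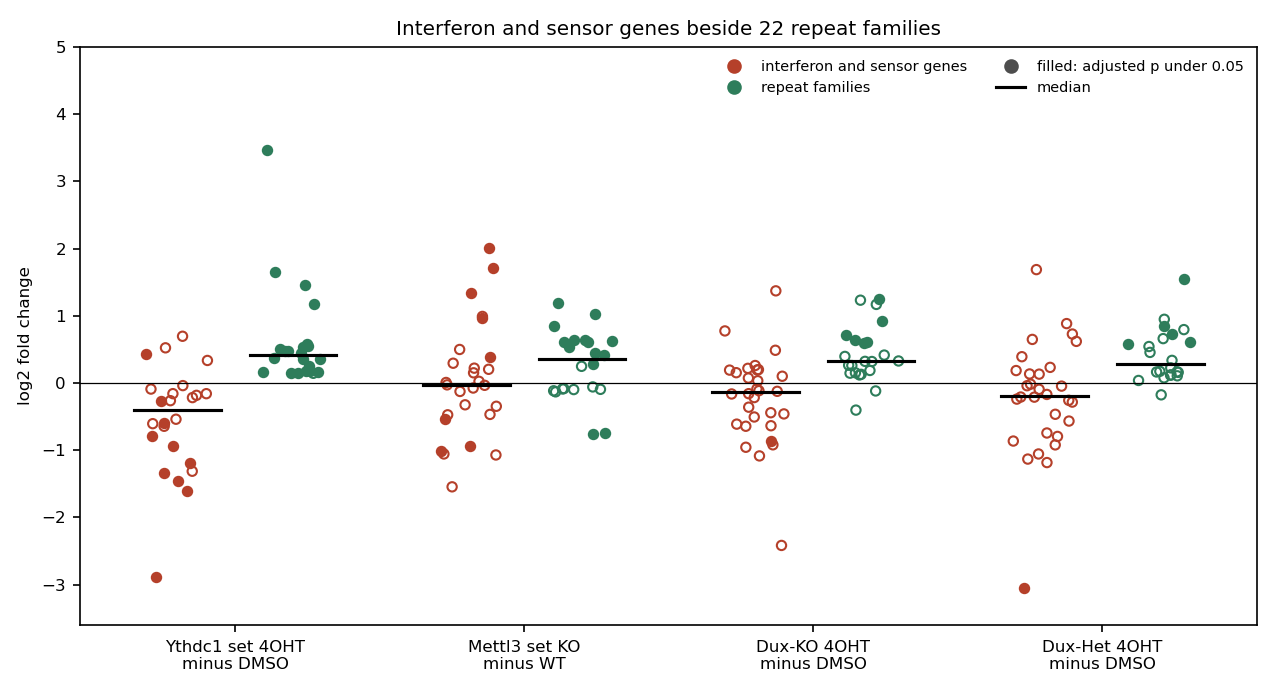
Log2 fold changes of the 31 members and of the 22 repeat families (retroelements and the satellite GSAT_MM) in the same comparisons. There is 1 point per gene or family, filled where the adjusted p was under 0.05, with bars at the medians. The families lie above 0 in the Ythdc1 set (median 0.41) while the members lie mostly below it (median -0.40).

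Of the interferon ligands, Ifnk had 392 counts over all 22 libraries and was detected in each (0.1 to 0.834 CPM). The others measured were scarcer: Ifna2, Ifna4, Ifna5, Ifne and Ifng had 2, 6, 6, 4 and 6 counts over all 22 libraries. Ifnb1, Ifna1, Ifnl2 and Ifnl3 were looked for and have no row under these names, so their RNA could not be read here. The receptor chain Ifnar1, chosen after its values were seen, was at 37 to 57.9 CPM throughout. The other chain, Ifnar2, was lower, at 2.97 to 7.75 CPM.

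A wider list of 108 genes of the pathway, of which 102 have a row, was read beside the members; it was compiled with earlier results known and not for how its genes moved. In the Ythdc1 set 20 of 81 tested rose (24.7%) and 26 fell (32.1%), against 23.7% and 21.4% of all entries. By role, among 24 signalling genes 11 rose and 2 fell, among 19 genes that handle double-stranded RNA 1 rose and 10 fell, among 31 other interferon-stimulated genes 7 rose and 14 fell, and among 7 ligands and receptors 1 rose and 0 fell. The largest falls were those of Slfn9 (1.09 ± 0.496 CPM with 4OHT, 13.3 ± 3.35 CPM with DMSO; log2 fold change -3.54, adjusted p = 3.42e-08) and Slfn8 (-2.62), both Schlafen family genes with close copies, followed by the HECT ligase Herc6 (-2.46), the transcription factor Irf8 (-1.96), the immunity-related GTPases Irgm2 (-1.57) and Igtp (-1.48), the synthetase Oas3 (-1.33) and Gbp4 (-1.32). The largest rises were those of Slfn2 (3.54, adjusted p = 0.00036), the MHC class I regulator Nlrc5 (9.36 ± 0.581 CPM with 4OHT, 1.31 ± 0.595 CPM with DMSO; 2.84, adjusted p = 9.15e-08), the kinase Ikbke (1.52), which phosphorylates Irf3 and Irf7, and Lgals3bp (1.36).

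In the Mettl3 set 16 of 81 genes of this list rose and 16 fell (19.8% each), against 16.4% and 14.9% of all entries. Irf8 (-2.66, adjusted p = 0.00153), Oas3 (-1.83) and Slfn8 (-1.57) fell in KO, and Tmem173, the DNA-sensing adaptor STING, rose (3.05 ± 0.0576 CPM in KO, 0.803 ± 0.285 CPM in WT; 1.95, adjusted p = 0.00234), as did Lgals3bp (1.69) and Irf2 (1.44). In the Dux set 11 rose and 13 fell of 89 tested on the mean of both genotypes, against 13.7% and 11.8% of all entries. In Dux-KO cells 5 rose and 3 fell, against 5.5% and 4.36%, and in Dux-Het cells 6 rose and 3 fell, against 4.99% and 4.34%.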

How the data were processed

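RNA was measured in 22 libraries of mouse embryonic stem cells. The authors deposited whole-number counts per gene and repeat family, unscaled, in 1 table. Of upstream tools, STAR 2.7, RSEM, Bowtie2 and bcl2fastq, and of builds mm10, are listed in the submitters' processing notes without roles; the counting tool and annotation are not stated there. Gene positions and exon lengths came from GENCODE vM21 (GRCm38) and promoters from RefSeq (GRCm38.p6). A further deposited table of normalized values was not used. In the Dux set each sample's genotype and treatment fields carry those of a neighbouring sample; groups were taken from the titles, which match the column names.

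The counts were fitted over all entries with edgeR's quasi-likelihood functions (version 4.0.16, R 4.3.3; filterByExpr, TMM, glmQLFit, glmQLFTest), and p-values were adjusted by Benjamini-Hochberg and called under 0.05. The Ythdc1, Mettl3 and Dux sets were fitted apart, and differences between sets in joint fits. Standard errors were obtained by dividing the size of each log2 fold change by the root of its F statistic. CPM use TMM factors over all 22 libraries. Libraries held 24.96 to 54.14 M counts. Replicate pairs differed by more than counting error (chi-square per degree of freedom 3.741 to 99.07 over 18 pairs), so none was counted as a duplicate. The fits were tested on simulated data, with changes placed in entries that were not scarce. Of 2-fold changes 91% were recovered in the Ythdc1 set, 74% in the Mettl3 set and 49% in Dux-Het cells. Of 4-fold changes 100%, 95% and 98% were recovered. Same-numbered Dux libraries deviated together within each genotype (correlation 0.234 in Dux-KO and 0.533 in Dux-Het cells, where 2 numbers give the same value) but not throughout across genotypes (-0.187 with 4OHT, 0.352 with DMSO); the labels do not say what a number marks, so a block within genotypes was added and its calls are given beside the results they change. Alternatives were DESeq2 1.42.0, no filter on low counts, gene entries alone, a replicate block, other pseudocounts for the unreplicated pair, and each library left out.

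The 31 genes and the pathway lists were chosen with earlier results of these data known. Values in every library are given for members called with at least a 2-fold change in any comparison and for the sensors, Mavs, Adar and Zbp1. Of the pathway lists, the 12 largest changes called in the Ythdc1 set and the 6 largest in the Mettl3 set are named.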

Additional observations from a re-analysis of the deposited data

Results flagged for a closer look

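Irf7, a transcription factor of type I interferon genes, stood at 1.351 CPM in DMSO replicate 4 of the Ythdc1 set, far below the other DMSO libraries at 2.27 to 2.42 CPM. It was the only library set apart in this way in 48 combinations of a gene and a group of 4; chance sets apart about 1 in 20.

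The effect of 4OHT on Eif2ak2 was lower in the Ythdc1 set than on average in the Dux set, by a test of that difference (-0.5495 on the log2 scale, SE 0.135, adjusted p = 0.0446 by edgeR). The log2 fold changes were -0.79 in the Ythdc1 set and -0.22 for the Dux set mean, and Eif2ak2 was lower with 4OHT in 5 of 5 same-numbered pairs of the Dux set.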

How the results depend on the processing

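In the Ythdc1 set, leaving out each library in turn gave 1 to 2 members higher, 6 to 9 lower and 9910 to 10931 entries called; the replicate block gave 1 higher and 11 lower, adding Ifih1 and Gbp3. Column numbers paired those libraries only in part by the data (correlation of same-numbered deviations 0.266, 0.04, 0.265 and 0.277). Numbers 1, 3 and 4 with 4OHT correlated best with their own number, and number 2 with number 1. Same-numbered libraries of the Mettl3 set hardly deviated together (0.0466). The Mettl3 set depended on single libraries: 0 to 9 members higher, 0 to 9 lower and 351 to 9716 entries called, with 0 without WT replicate 1; Gbp3 reversed to -1.136 without KO replicate 1 and stood at 0.65 without KO replicate 2, against 0.03 with all. Leaving out libraries gave 0 to 0 members higher and 0 to 0 lower and 423 to 2427 entries in Dux-KO, 0 to 1, 0 to 3 and 1254 to 2093 in Dux-Het, and 0 to 1, 2 to 7 and 3892 to 7525 for the Dux mean. It gave 0 to 1 entries for the difference between Dux genotypes in effect and 0 to 15 at DMSO. For the Ythdc1 minus Mettl3 difference it gave 1 to 2 higher, 5 to 9 lower and 5033 to 7295 entries, and for the Ythdc1 minus Dux difference 0 to 1, 0 to 3 and 172 to 1120.

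DESeq2 gave 2 members lower in Dux-KO, 0 higher for the Dux mean, 2 entries for the Dux difference in effect, 17 at DMSO, and 1043 for Ythdc1 minus Dux. With no filter on low counts, Dux-Het had 1 member higher, 3 lower and 4319 entries, Dux-KO 1, 4 and 4701, and the Dux mean 2 higher and 6 lower; the difference in effect had 28 entries, DMSO 2 members higher and 124 entries, and Ythdc1 minus Dux 8 members lower and 1402 entries. The replicate block gave 5 members lower in the Mettl3 set, 2 in Dux-KO, and 2 with 830 entries for Ythdc1 minus Dux.

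The last alternatives were chosen after seeing the data. A replicate block within each Dux genotype gave 2 members higher, 6 lower and 6098 entries in Dux-Het, 1, 4 and 6801 in Dux-KO, 2 and 8 for the Dux mean, and 5 entries for the difference in effect. Without both Dux-Het replicate 2 libraries, leaving 1 library per treatment whose spread is taken from the other groups, Dux-Het had 1 member higher and 1615 entries, the Dux mean 2 higher and 5 lower, the difference in effect 7 entries, DMSO 22, and Ythdc1 minus Dux 1 higher, 3 lower and 937 entries. The cause of these shifts was not tested. Members with few counts, such as Isg15 and Mx1, are limited by depth.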
